A study of Homo sapiens with 2 samples.

Results

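The pregnancy-specific glycoproteins (PSGs) were examined in MDA-MB-231 cells, an established human line of triple-negative breast cancer. The probe sets were those whose platform annotation gives PSG1, PSG2, PSG3, PSG4, PSG5, PSG6, PSG7, PSG9 or PSG11 and no other gene. This gave 19 of the 54675 probe sets on the array, 16 of which name 1 gene and 3 of which name a pair of paralogs. The study measured total RNA on 2 Affymetrix U133 Plus 2.0 arrays, 1 from cells 48 h after transfection with a control siRNA and 1 from cells 48 h after transfection with siRNA against KMO (siKMO). KMO encodes kynurenine 3-monooxygenase, an enzyme of tryptophan breakdown. The array names in the labels include shLUC and shK421, forms common for short hairpin RNA, so the kind of construct is uncertain and the groups are those of the sample titles. Levels are robust multi-array average (RMA) values on the log2 scale, in which a difference of 1 is 2-fold, and every difference is siKMO minus control. With 1 array in each group there is no replicate, no error on any difference and no test, and each value describes this pair of cultures.

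PSGs are secreted, heavily glycosylated members of the immunoglobulin superfamily and form a branch of the carcinoembryonic antigen family, beside the CEACAM proteins. The syncytiotrophoblast, the outer layer of the placenta, makes them in large amounts and releases them into the mother's blood, where they are known to bind integrins and heparan sulfate proteoglycans and to activate latent TGF-beta. Their genes lie side by side in a cluster on chromosome 19 and are so alike that a short array probe for one can bind transcripts of others. On this array the ending _x_at marks a probe set with probes that can bind other sequences, _s_at one shared by several transcripts, and a plain _at one designed for a single transcript. Of the 19 probe sets, 13 end in _x_at, 3 in _s_at and 3 in plain _at.

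Promoters of 3 of the 9 genes were found in the RefSeq promoter table of build GRCh38.p14. The 120 bases just before the RefSeq start of each are shown. PSG5 has nearly the same sequence there as its paralogs PSG3 and PSG4. It differs from them within an element that Kruppel-like factors are known to bind. All lie on the minus strand and read 5′ to 3′ towards the gene, PSG5 at chr19:43186537-43186656, PSG4 at chr19:43205639-43205758 and PSG3 at chr19:42740482-42740601. Capitals mark the 8-base element CCCCACCC or CCCCGCCC.
PSG5: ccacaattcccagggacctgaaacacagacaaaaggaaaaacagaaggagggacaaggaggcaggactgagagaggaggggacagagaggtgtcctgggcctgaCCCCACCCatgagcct
PSG4: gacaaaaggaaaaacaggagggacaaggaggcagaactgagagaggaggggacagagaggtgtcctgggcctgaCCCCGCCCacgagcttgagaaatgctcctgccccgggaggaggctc
PSG3: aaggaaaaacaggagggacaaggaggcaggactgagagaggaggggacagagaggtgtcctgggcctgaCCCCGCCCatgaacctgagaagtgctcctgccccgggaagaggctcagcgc

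The element ended 9 bases before the RefSeq start of PSG5, 39 before that of PSG4 and 44 before that of PSG3, so the annotated starts differ and the runs are offset against each other. Over the 250 bases before the start, PSG5 was identical to PSG4 at 98.1% of 207 aligned bases and to PSG3 at 96.3% of 214, gaps left out. In the 21 bases from cctgacccc onwards, counted from 1 at their 5′ end, PSG3 differed from PSG5 by the substitutions A10G and G18A, and PSG4 by A10G, T15C and C20T. A10G turns CCCCACCC into CCCCGCCC. Both strands of the 250-base windows before 35116 RefSeq starts were searched: CCCCACCC was present in 10.4% of them, CCCCGCCC in 21.8%, and the TATA box letters TATAAA in 10.7%. These elements do not overlap with one another in the PSG windows. PSG5 held CCCCACCC alone, PSG3 and PSG4 held CCCCGCCC alone, and none of the 3 windows held TATAAA. A match of letters is a description and does not show that a factor binds. Whether the element has a part in the PSG values was not tested.

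The family was lower in the siKMO array. Of the 19 probe sets, 18 were lower there, against 44.4% of all probe sets on the array, and 9 were lower by at least 2-fold with no minimum on the level, against 0.794% of all. The family was selected on these same differences between the arrays, so the counts describe the choice and are no test of it. The median difference was -0.98, and that over all 54675 probe sets was 0. A level of 6 or more as the mean of both arrays was reached by 11 of the 19, all of them _x_at probe sets, and 4 of these 11 passed although the siKMO level was under 6. Among the 11, 6 were lower by at least 2-fold, where the background was 1.23% of 16836 probe sets and 1.45% of the 1719 such probe sets that end in _x_at. Nothing is read from that share, since a probe set can pass through its control level alone. In RNA from a whole culture, fewer cells that express a gene and less RNA per cell cannot be told apart.

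**Figure D1:**
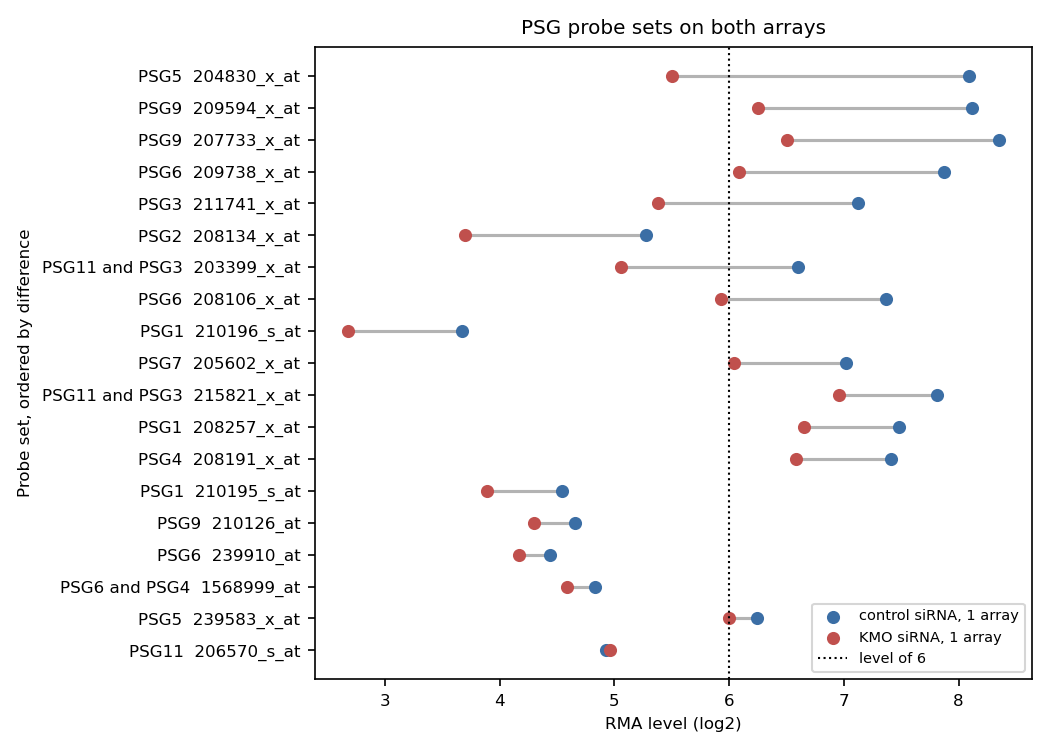
RMA levels (log2, horizontal axis) of the 19 PSG probe sets on the control siRNA array (blue) and the KMO siRNA array (red), 1 array each, ordered by difference, with a dotted line at 6. The red point lies left of the blue one in 18 of 19 rows, and the widest gap is that of PSG5 204830_x_at, from 8.09 to 5.50.

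PSG5, whose promoter is the one in which the Kruppel-like factor KLF6 was first recognised, had the largest difference and also the widest disagreement between probe sets. Probe set 204830_x_at stood at 8.09 in control and at 5.50 in siKMO cells. With 6 in place of the siKMO level, which lies in the range of weak signals, PSG5 was at least 4.25-fold lower, and the deposited difference was -2.58. With levels under 6 taken as 6 throughout, it ranked 6 from the lowest among the 16836 probe sets at a mean of 6 or more. The other PSG5 probe set, 239583_x_at, stood at 6.24 and 5.997, a difference of -0.24. Both name PSG5 alone and both end in _x_at, so the change of PSG5 itself is not settled by this array.

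PSG9, a member also studied as a blood marker in colorectal cancer, was lower to nearly the same extent with its pair of stronger probe sets. Probe set 207733_x_at stood at 8.36 in control and 6.51 in siKMO cells and was 3.60-fold lower, and 209594_x_at stood at 8.11 and 6.25 and was 3.64-fold lower. These are the PSG probe sets beyond 2-fold, together with 209738_x_at of PSG6, whose levels were above 6 in both arrays, so their folds need no bound. The PSG9 probe sets ranked 11 and 10 from the lowest in the same order. The third PSG9 probe set, 210126_at, which ends in plain _at, was weak in both arrays, at 4.66 and 4.30, with a difference of -0.35.

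PSG6 gave the same picture. Probe set 209738_x_at stood at 7.87 in control and 6.09 in siKMO cells, a 3.44-fold lower level, and 208106_x_at at 7.37 and 5.93, at least 2.58-fold lower. Probe set 239910_at of PSG6 stood at 4.44 and 4.17, a difference of -0.27. Probe set 1568999_at, which names PSG6 and PSG4 together, stood at 4.83 and 4.59, a difference of -0.24. Both plain _at probe sets therefore lay under 6 on both arrays, where no fold is given.

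PSG3 and PSG11 cannot be separated well, because 2 probe sets name them together. Probe set 211741_x_at, which names PSG3 alone, stood at 7.12 and 5.38 and was at least 2.18-fold lower. The shared probe set 203399_x_at stood at 6.60 and 5.06 and was at least 1.52-fold lower, while the shared 215821_x_at stood at 7.81 and 6.95 and was 1.81-fold lower. The only probe set that names PSG11 alone, 206570_s_at, was weak and differed by 0.04 between the arrays, at 4.92 and 4.97. It was the 1 PSG probe set that was higher in the siKMO array, so no lower level was seen with a probe set of PSG11 alone.

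PSG1, PSG4 and PSG7 differed less than PSG5, PSG6 and PSG9 with their strongest probe sets and fell short of 2-fold. For PSG7, 205602_x_at stood at 7.02 and 6.04, a difference of -0.98 just short of the threshold of -1. For PSG1, the member best known for binding integrins and activating latent TGF-beta, 208257_x_at stood at 7.48 and 6.65, a difference of -0.83. For PSG4, 208191_x_at stood at 7.41 and 6.58, also a difference of -0.83. Those 3 probe sets were above 6 on both arrays. The other PSG1 probe sets were weak: 210195_s_at stood at 4.55 and 3.89 and 210196_s_at at 3.68 and 2.68, differences of -0.65 and -1.0002. PSG2 had a single probe set, 208134_x_at, at 5.28 and 3.70; its difference of -1.58 was measured between levels that were both under 6, and no fold is given. Among probe sets with a mean of 6 or more, 205602_x_at of PSG7 was thus the nearest short of the 2-fold threshold. The nearest beyond it was 208106_x_at of PSG6 by deposited differences. With levels under 6 taken as 6, it was 211741_x_at of PSG3, at least 2.18-fold lower.

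The size of the difference followed the kind of probe set. The 13 _x_at probe sets were all lower, with a median difference of -1.55 and a range from -2.58 to -0.24. Without a level minimum, 8 of them were lower by at least 2-fold. Of all probe sets on the array, 44.4% were lower and 0.794% were lower by at least 2-fold. The family was selected on these differences, so the counts describe the choice. The 6 probe sets of the other kinds had a median of -0.31 and a range from -1.0002 to 0.04. All 6 of these had levels under 5 on both arrays, whereas control levels of the _x_at probe sets ran from 5.28 to 8.36. Kind of probe set and level of signal therefore cannot be told apart in this family. Over the 19 probe sets the mean level and the difference had a Pearson correlation of -0.49, a description only, because the probe sets share transcripts and the arrays. Among all 1719 _x_at probe sets at a mean of 6 or more the median difference was 0.02. That value does not bear on binding of PSG probes to transcripts of other members, which was not tested.

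**Figure D2:**
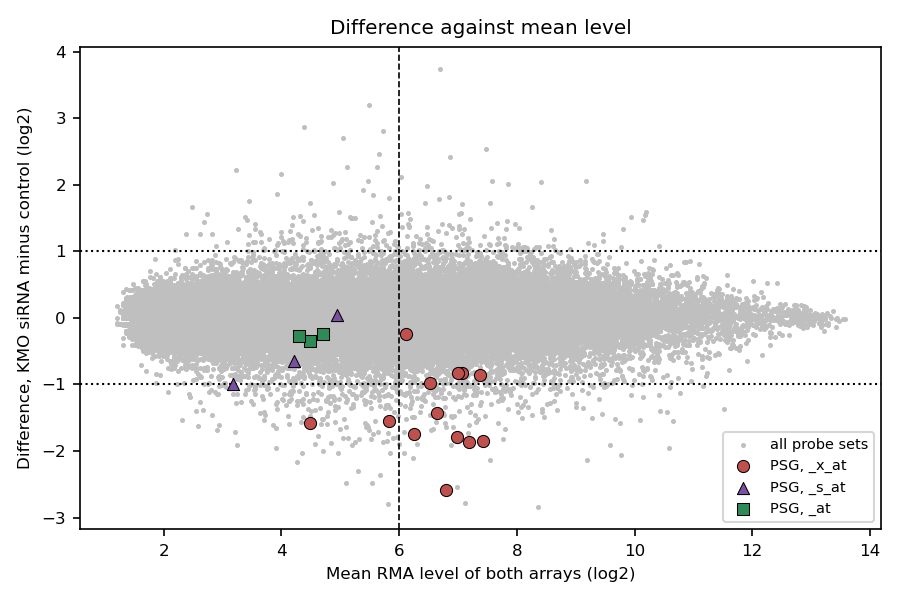
Difference between the arrays (KMO siRNA minus control, log2, vertical axis) against the mean RMA level of both arrays (log2, horizontal axis) for all 54675 probe sets in grey and the 19 PSG probe sets in colour by probe set ending. Dotted lines mark 2-fold and the dashed line a mean of 6; the 11 PSG probe sets right of the dashed line all end in _x_at and lie between -2.58 and -0.24.

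Probe sets with lower levels were named for members along the gene cluster, from PSG3 at one end to PSG9 at the other. Those with a mean of 6 or more all end in _x_at, so they may also bind transcripts of other members, which was not tested. A lower level of each gene is therefore not shown. In RefSeq order the protein-coding genes of the cluster are PSG3, PSG8, PSG1, PSG6, PSG7, PSG11, PSG2, PSG5, PSG4 and PSG9, and PSG8 has no probe set used here. With the strongest probe set naming each alone, the deposited differences in that order were -1.74, -0.83, -1.78, -0.98, 0.04, -1.58, -2.58, -0.83 and -1.85, PSG8 left out. The values for PSG11 and PSG2 lie between levels under 6, and with the siKMO level taken as 6 the differences of PSG3 and PSG5 are -1.12 and -2.09. Of the 10 protein-coding genes on each side, 19 of 20 had a probe set and 6 had a mean level of at least 6. Of these 6, 3 were lower and 3 higher, their differences ran from -0.16 to 0.40, and 0 differed by 2-fold in either direction. Over all 8997 measured genes 44.1% were lower and 2.25% differed by 2-fold in either direction. The counts among the 6 are near this background and set the neighbours apart from no other genes. On one side PAFAH1B3, a subunit of a phospholipase, differed by 0.12 and CEACAM1, a cell adhesion protein, by -0.16. On the other side the base excision repair scaffold XRCC1 stood at 5.85 and 6.21, and IRGQ differed by 0.40. The mitochondrial sulfur dioxygenase ETHE1, at 8.001 and 7.998, and the zinc finger gene ZNF576 differed by -0.003 and -0.08. Whether the cluster and its neighbours differ was not tested.

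**Figure D3:**
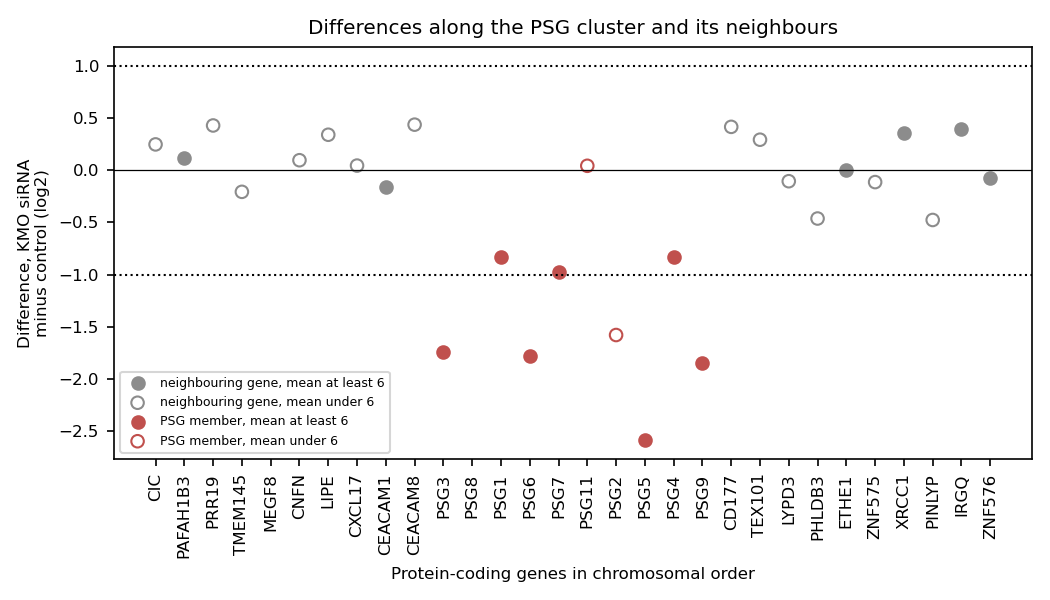
Difference (KMO siRNA minus control, log2, vertical axis) of the 10 protein-coding genes on each side of the cluster (grey) and of the PSG genes (red) in chromosomal order, each by its strongest probe set that names it alone; open points have a mean level under 6 and genes without a point have no such probe set. The PSG points lie between -2.58 and 0.04 and the neighbours between -0.48 and 0.44. Filled PSG points come from _x_at probe sets, which may also bind transcripts of other members.

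Most of the closest relatives of the family had a mean under 6, as did 10778 of all 19775 genes. The 20 probe sets of 9 CEACAM genes differed by -0.26 to 0.44, and 0 were lower by 2-fold, against 0.794% of all probe sets, a share at which 0 of 20 is no result about the relatives. Only CEACAM1 (6.53 and 6.37) and CEACAM19 (6.01 and 6.09) had a probe set at a mean of 6 or more, and no CEACAM probe set of the other genes exceeded 5.56 on either array. The tumour marker CEACAM5, which encodes carcinoembryonic antigen, stood at 4.31 and 4.20.

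Markers of trophoblast, the cell type that normally makes PSGs, were mostly at a weak level. Of 18 markers, 16 had a probe set and 13 of these had a mean under 6. Over all genes, 10778 of 19775 had a mean under 6, so a weak level is common on these arrays. The 13 markers had levels from 2.59 to 5.29 in control and from 2.64 to 5.18 in siKMO cells. Among them, the hormone subunit CGA stood at 2.59 and 2.64, the placental lactogen CSH1 at 3.38 on both arrays and the trophoblast transcription factor GCM1 at 2.77 and 2.82. The fusion protein genes ERVW-1 and ERVFRD-1 stood at 3.50 and 3.30 and at 2.62 and 2.73. KISS1, which encodes kisspeptin, was above 6 on both arrays and differed by 0.45, and PLAC1 stood at 6.11 and 5.90. HLA-G read 11.21 and 11.06, but its probe set ends in _x_at and HLA class I genes are near-identical, so that value is uncertain. PAPPA, at 4.44 and 4.97, had the largest difference among the 13 weak markers. PSG signal was thus measured in cells in which 13 of the 16 trophoblast markers had a mean under 6, while KISS1, PLAC1 and HLA-G did not. Of the genes that mark the line, VIM, CD44, EGFR and CAV1 stood between 9.76 and 12.96 on the arrays. The hormone receptor genes ESR1 (4.74 and 4.84) and PGR (2.58 and 2.39) were weak, and the growth factor receptor gene ERBB2 stood at 7.44 and 7.37. The 3 KMO probe sets lay between 2.11 and 2.95 on both arrays, with differences from -0.03 to 0.24, so the knockdown could not be checked.

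Transcription factors known or proposed to act on PSG promoters differed by -0.53 to 0.15 with their strongest probe sets. Of 7 such genes, 6 had a mean level of at least 6. Of these, 4 were lower and 2 were higher, where 44.1% of all 8997 genes were lower. In either direction 0 differed by 2-fold, a count near the background of 2.25%. Nothing is read from these counts. The median was -0.28, and over all 8997 genes it was 0.04. KLF4, a Kruppel-like factor, differed by -0.53 (9.81 and 9.28) and -0.46 with its 2 probe sets. KLF6, the factor named above for the PSG5 element, was lower with all 5 of its probe sets, by -0.38 to -0.28. Of all probe sets with a mean of 6 or more, 5% had a difference of -0.58 or lower, which no KLF4 or KLF6 probe set reached. GABPA, an ETS family factor, differed by -0.31, and its partner subunit GABPB1 by 0.15. SP1, which binds GC-rich elements, differed by -0.25, with a range from -0.30 to 0.22 over 4 probe sets. The retinoid receptors RXRA and RARA differed by 0.03 each, RARA at 5.59 and 5.62, and their probe sets ran in both directions. Whether these factors have a part in the PSG values was not tested.

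Partners of PSG proteins went in both directions. Of 15 listed genes, 14 had a mean of at least 6, with 9 lower, 4 higher and 1 (SDC3) identical on both arrays. Over all 8997 measured genes, 44.1% were lower by any amount. The median was -0.20, and over all 8997 genes it was 0.04. By deposited differences 1 of the 14 was lower by at least 2-fold, where 125 of all 8997 measured genes were. Nothing is read from these counts. The largest difference was that of ITGB3, an integrin subunit, at 6.63 and 5.48. Taking the siKMO level as 6, it was at least 1.55-fold lower, with deposited differences from -1.15 to -0.24 over its 7 probe sets. The integrin subunits of the fibronectin receptor, ITGB1 and ITGA5, differed by -0.41 and -0.14, and the tetraspanin CD9 by -0.46. The heparan sulfate proteoglycans SDC1, SDC2 and SDC4 differed by 0.33, -0.22 and -0.25. TGFB1 differed by -0.39, but its other probe set by 0.17. The TGF-beta receptor TGFBR2 differed by 0.42.

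Genes that TGF-beta switches on had no common direction. Of 9 listed genes, 7 had a mean of at least 6, with a median of -0.06. Of these, 4 were lower and 3 were higher, where 44.1% of all 8997 genes were lower. A difference of 2-fold was reached by 0 of them, again near the background of 2.25%. The largest differences were those of JUNB, an AP-1 subunit (-0.85), PMEPA1, a feedback inhibitor of the pathway (0.63), and SKIL, a repressor of SMAD activity (-0.52, and up to 0.41 with another probe set). TGFBI, a secreted matrix protein, differed by 0.42.

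**Figure D4:**
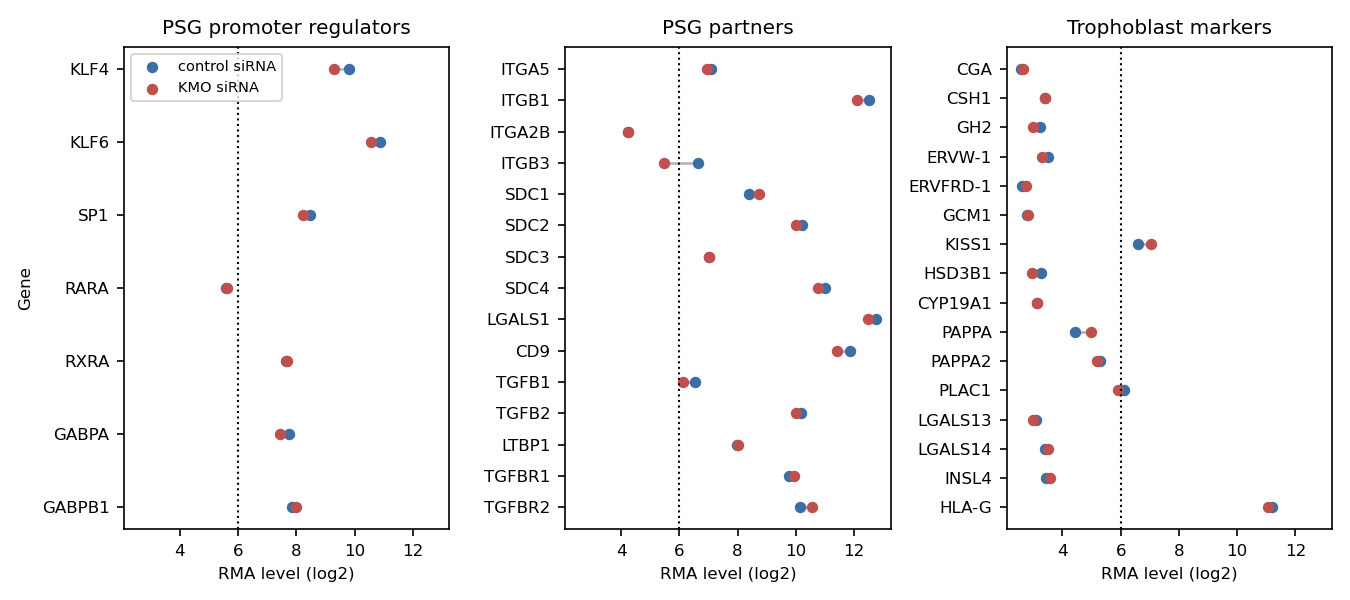
RMA levels (log2, horizontal axis) on the control siRNA array (blue) and the KMO siRNA array (red), 1 array each, of factors that act on PSG promoters, of partners of PSG proteins and of trophoblast markers, each gene by its strongest probe set; the dotted line is at 6. ITGB3, from 6.63 to 5.48, has the widest gap, and 13 of 16 trophoblast markers have a mean under 6, as do 10778 of all 19775 genes.

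The genes outside the family whose pair of levels was nearest to the median pair of the 11 PSG probe sets, 7.48 in control and 6.09 in siKMO cells, were found by Euclidean distance over the 2 arrays. They were CHAC1, a glutathione-degrading enzyme, at 7.50 and 6.04 (distance 0.053), SDR16C5, a retinol dehydrogenase, at 7.45 and 6.03 (0.068), and ASAP3 at 7.38 and 6.17 (0.14). Likeness over 2 arrays rests on a single difference and on the level.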

How the data were processed

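RNA of 2 cultures was measured on 1 array each. The authors deposited log2 levels from robust multi-array averaging, per the labels. The tool listed in the submitters' processing notes is Affymetrix Expression Console; its version, and which arrays shared a normalization, is not given in the sources used here. RMA gives neither detection calls nor a true zero and compresses differences of weak genes. Precision is limited by the number of arrays.

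Names came from the platform annotation, with symbols brought up to date through gene identifiers in RefSeq (GRCh38.p14). A gene outside the family took its probe set with the highest mean that names it alone. A mean of 6 or more counted as measured, a level under 6 was taken as 6 for folds given as bounds, and 2-fold was the threshold. Named were all members, the 2-fold or otherwise the 3 largest differences of each other list, all promoter factors and the 3 nearest genes; other genes named were picked with their values known. The members and lists were chosen with earlier results of these data known. Promoters were aligned with Biopython 1.88; the rest used Python 3.11.15 and pandas 2.3.3. Calls were run on simulated data with changes placed in strong probe sets only. That checks the code and does not cover changes at weaker levels. Other level minimums, thresholds, probe set choices and scalings were tried.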

Additional observations from a re-analysis of the deposited data

How the results depend on the processing

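With 1 array in each group, no library could be left out. No paired analysis was possible because each group holds 1 array and no test was made. The median difference of the PSG probe sets was -1.43 over the 11 with a mean of 6 or more, and stayed within 0.05 of it when the arrays were centred on their medians or quantile normalized again. It was -0.98 with no level minimum, -1.49 with a minimum of 5, -1.35 with 7, -1.59 over probe sets that name 1 member only, and -1.12 with levels under 6 taken as 6. In 2 settings chosen after seeing the data it was -1.74 with 1 probe set per gene and -1.55 over the _x_at probe sets. The count lower by at least 2-fold was 6 of 11, where the background was 1.23% of 16836 probe sets. It was 2 of 4 with a level minimum of 7, for which no share over all probe sets is given here. At a threshold of 1.5-fold it was 10 of 11 (background 5%), and at 3-fold 5 of 11 (background 0.172%). With no level minimum it was 9 of 19, against 0.794% of all probe sets. In the other settings the count at 2-fold lay between 4 and 8, over sets of 7 to 13 probe sets. The family was selected on these differences, so nothing is read from the counts. With plain _at probe sets alone, 0 had a mean of at least 6, so neither value could be had.

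A gene's value was that of its strongest probe set, shared ones included. With the mean of all its probe sets in place of that, PSG3 moved from -0.85 to -1.38, PSG4 from -0.83 to -0.54, PSG5 from -2.58 to -1.41, PSG6 from -1.78 to -0.93, PSG9 from -1.85 to -1.36 and PSG11 from -0.85 to -0.79. With probe sets that name 1 member only, PSG3 was at -1.74 and PSG11 reversed to 0.042, since its other probe sets are shared with PSG3. With plain _at probe sets alone, PSG4 and PSG6 were at -0.24 and PSG9 at -0.35, all between levels under 6, and the other members had no such probe set. With levels under 6 taken as 6, PSG5 was at -2.09 and PSG2 at 0.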

Other observations

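Exact differences recurred among weak probe sets. Of the 8 PSG probe sets with a mean under 6, 7 had a difference that at least 1 other probe set on the array repeated within 2e-06, and 206570_s_at of PSG11 shared its value with 19 others. Of the 11 PSG probe sets at a mean of 6 or more, only 239583_x_at of PSG5 did, with 2 others. Over the whole array, 90.8% of 37839 probe sets with a mean under 6 and 30.9% of 16836 with a mean of 6 or more shared their difference with another. The cause was not tested.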
